A study of Drosophila melanogaster with 2 samples.

Results

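Mediator is the large coactivator complex that carries signals from DNA-bound activators to RNA polymerase II at promoters. Its head and middle modules contact the polymerase, its tail module receives activators, and a kinase module, which can leave the complex, holds the cyclin-dependent kinase Cdk8. In the ovary the complex serves transcription in the germline and in the somatic follicle cells, and what is described here is the abundance of the mRNAs that encode its subunits, not the complex itself. The genes were those whose symbol is MED followed by a number, together with kto, skd, Cdk8 and CycC. This gave 29 of the 17720 genes listed in each of the 2 tables, 9 in the head, 9 in the middle, 7 in the tail and 4 in the kinase module, by a textbook assignment. RefSeq matched 29 of 29 by symbol, with the same start and end.

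RNA immunoprecipitation, in which an antibody pulls a protein with the RNA it holds from a lysate, was followed by sequencing. One lysate of ovaries from Oregon-R flies, a wild-type strain, was divided between an antibody against the histone demethylase Lsd1 (the Lsd1-RIP library) and a control titled IgG-RIP, whose label names an antibody against GFP. Per the labels, about 200 females of at most 12 hours after eclosion went into each precipitation, and the flies carried no named transgene or mutation. With 1 library per group and no input library analysed here, the ratio of the libraries has no replicate check, and no test and no p-value are given. 

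The values were FPKM, in which fragment numbers are scaled for the length of the transcript and the depth of sequencing, each with a deposited lower and upper bound. The ratio used throughout is on the log2 scale, with 1 added to the FPKM of each library, the Lsd1-RIP library over the control. Its interval is 2 standard errors either way, taken from the deposited bounds, and covers at most counting error and uncertainty of assignment. A gene is called eligible when it had an estimate in each library and its FPKM averaged at least 1, which held for 6025. Their median ratio was 0.32 (middle 50%, 0.13 to 0.52), a 1.25-fold offset towards the Lsd1-RIP library, and the Mediator ratios are to be read against it. Outside ribosomal RNA loci the libraries held about 1039524 (control) and 1201797 (Lsd1) fragments. Of 8 germline markers, 6 reached an FPKM of 1 in the control and 7 with the Lsd1 antibody, as did 5 of 8 markers of ovarian somatic cells, all 6 muscle sheath markers and 1 of 4 blood cell markers in both, while none of the 5 fat body or 4 neuronal markers did. The summed FPKM of the germline markers was 136 and 246, and that of the muscle sheath markers 145 and 127, in the IgG-RIP and Lsd1-RIP library in turn. A single germline marker gave 165 of the 246. The markers of ovarian somatic cells summed to 16.5 and 22.1. The part of these differences in the Mediator ratios was not tested.

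Mediator mRNAs were of low to moderate abundance in both libraries, and most had a higher FPKM in the Lsd1-RIP library, as most genes did. MED27 was listed at 0 in both libraries, and MED8 and MED21 at 0 in the Lsd1-RIP table alone. Of the other 26, with MED9 summed with the gene that covers it, 23 had a higher FPKM in the Lsd1-RIP library and 3 a lower one. The median plain fold of the 26 was 1.56, against 1.35 for the 5964 eligible genes listed above 0 in both libraries. Of the 26, 15 exceeded that value. Some of the 26 averaged under the minimum FPKM of 1, which none of the 5964 did.

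With MED9 taken alone, the highest FPKM among the subunits in the IgG-RIP library were 7.24 for MED22, 5.93 for MED18 and 5.01 for MED26, and the lowest above 0 were 0.453 for Cdk8, 0.60 for MED23 and 0.664 for MED20. The Lsd1-RIP library had the same 3 at the top in another order, with MED26 at 9.03, MED18 at 7.75 and MED22 at 6.76; MED9 summed with CG42518 would stand above MED22, at 7.47. Its lowest value above 0 was 0.792, for MED4. The span from lowest to highest was thus 16.0-fold in the control and 11.4-fold in the Lsd1 precipitation. Along that order the deposited intervals overlapped in all 27 adjacent pairs of the IgG-RIP library and all 25 of the Lsd1-RIP library. Neighbours in a sorted order hold the closest values, so this overlap says nothing of subunits further apart. With MED9 summed with CG42518, eligible subunits had a median FPKM of 1.98 and 3.20, against 2.74 and 3.86 for all eligible genes. A lysate of whole ovaries does not separate expression in fewer cells from less RNA per cell.

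**Figure D1:**
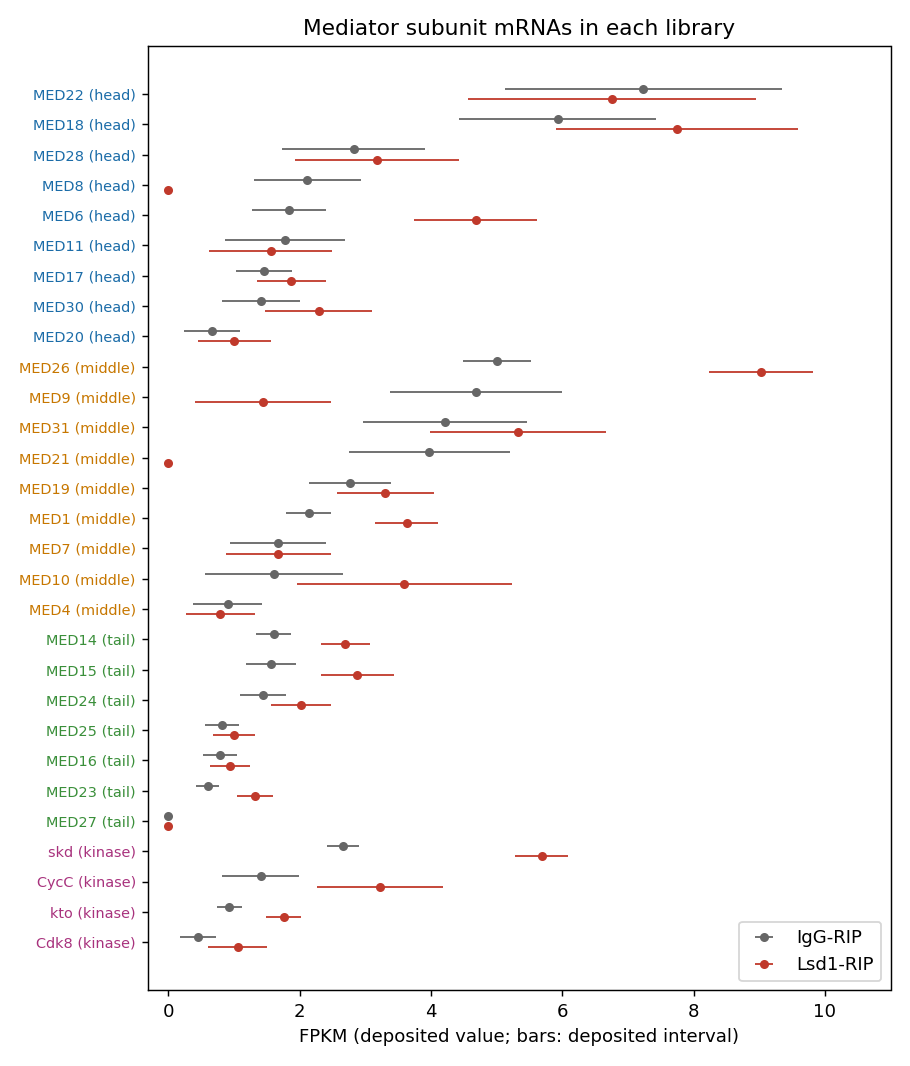
FPKM of the 29 Mediator subunit mRNAs (horizontal axis, linear) in the IgG-RIP (grey) and Lsd1-RIP (red) library, by module; points are deposited values and bars the deposited intervals, with 1 library per group. The 4 kinase module mRNAs lie further right in the Lsd1-RIP library, MED8 and MED21 are listed at 0 there, and MED27 is listed at 0 in both.

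By the minimum of 1 FPKM, 22 of the 29 subunits were eligible and 7 were not: MED4, MED16, MED20, MED23, MED25, MED27 and Cdk8. One subunit, kto, passed with an FPKM under 1 in the IgG-RIP library, and 2, MED8 and MED21, passed on the IgG-RIP value alone, so the eligible subunits do not stand for all. The ratios of those 22 ran from -2.32 to 0.9998, with a median of 0.39, or 0.07 above the median of all eligible genes. Above that all-gene median were 12 of the 22, where the background share is 50%. Both values depend on MED9 entering as a sum with CG42518: with MED9 alone the median was 0.322, against 0.324 for all eligible genes, and 11 of the 22 were above. None was 2-fold higher (background 2.12%). The 2 counted as 2-fold lower, or 9.09% (background 0.697%), were those listed at 0 in the Lsd1-RIP library. The deposited intervals of the libraries did not overlap, with the Lsd1-RIP value higher, for 8 of the 22, or 36.4%, which is close to the background of 36.1% among eligible genes. For 2, or 9.09%, they did not overlap with the Lsd1-RIP value lower (background 1.64%), again MED8 and MED21. A ratio interval wholly above the all-gene median was found for 5 of the 22, or 22.7% (background 17.5%): MED6, MED26, MED1, skd and CycC. It was wholly below for 2, or 9.09% (background 12.7%), MED8 and MED21. For these 2 subunits the lower calls follow from the listed 0 and are no separate results.

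The kinase module had the highest median ratio of the 4 modules, 0.81 over its 3 eligible members, with all 3 above the all-gene median. Of these, kto passed the minimum only through its higher, Lsd1-RIP value. The members of the module regulate Mediator by phosphorylation and by keeping the core from the polymerase. skd, the fly MED13 (3L:20992814-21027434), which links the module to the core, had an FPKM of 2.66 (2.41 to 2.91) in the control and 5.69 (5.28 to 6.09) with the Lsd1 antibody. Its ratio was 0.87 (interval 0.74 to 1.0004), and it rested on about 460 and 779 fragments, the most of any subunit. For CycC (3R:14889004-14890205), the cyclin that partners Cdk8, the FPKM was 1.41 and 3.22 and the ratio 0.81 (interval 0.33 to 1.29). CycC shares 143 nt, 11.9% of its locus, with CG33332, which had about 26.5 and 22.4 fragments. Summed over both genes the depth-scaled log2 ratio of fragments was 0.24, against 0.76 for CycC alone and -0.00465 for the median gene by that measure. kto (3L:19836614-19844944), the fly MED12, which activates the kinase and acts with skd in Wingless signalling in the fly, had 0.931 and 1.76, a ratio of 0.52 (interval 0.32 to 0.71). In none of these 3 did the deposited intervals of the libraries overlap, which also held, with the Lsd1-RIP value higher, for 36.1% of all eligible genes. The ratio interval of kto starts at 0.318, under the all-gene median of 0.324.

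Cdk8 (3L:9837080-9838670), the kinase itself, was below the minimum, with an FPKM of 0.453 (0.18 to 0.726) and 1.06 (0.607 to 1.51). These values correspond to about 11 and 22 fragments, and their intervals overlap. Its ratio was 0.50 (interval 0.09 to 0.92), which the pseudocount holds down at this level. By plain fold the 4 members lay close together, at 2.34 for Cdk8, 2.29 for CycC, 2.14 for skd and 1.89 for kto. All were above 1.35, the median of eligible genes, though Cdk8 itself was not eligible. The kinase module was the one module with every member above that value: in the head it was 3 of 8, in the middle 4 of 8 and in the tail 4 of 6 of those listed above 0 in both libraries. With 4 members and no replicate, this is a description of these libraries.

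**Figure D2:**
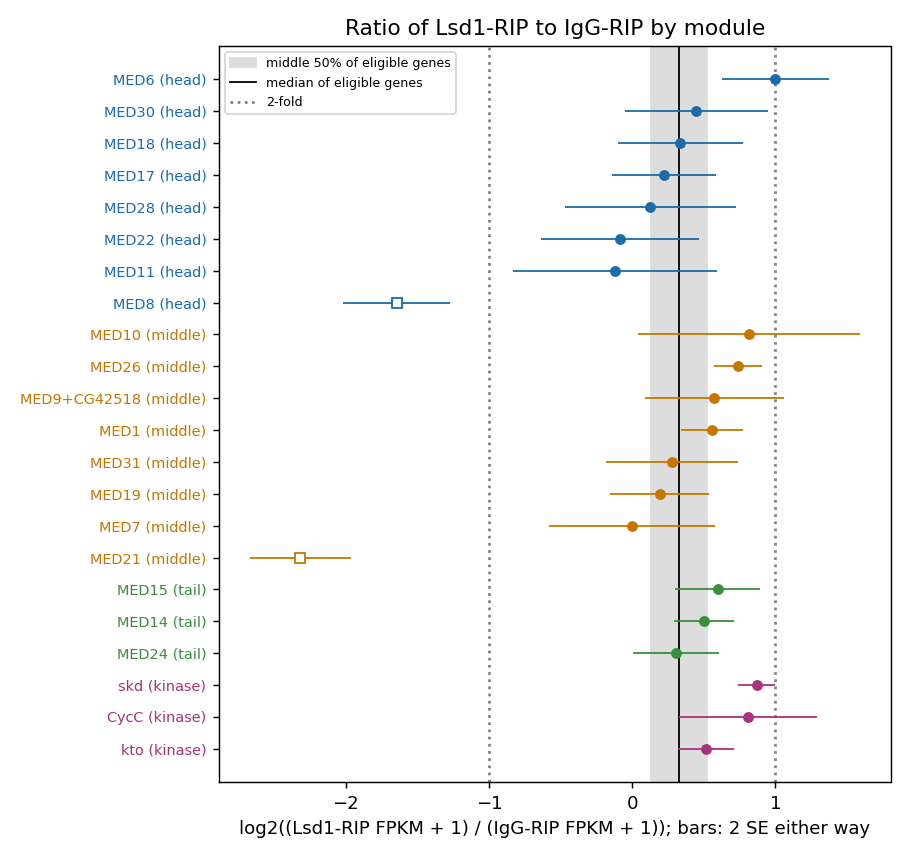
Ratio of Lsd1-RIP to IgG-RIP, log2 of FPKM + 1, for the 22 eligible Mediator subunits by module, with MED9 summed with CG42518; bars are 2 standard errors either way, the line and band are the median and middle 50% of 6025 eligible genes, and dotted lines mark 2-fold. Filled points lie between -0.12 and 0.9998; the open squares, MED8 and MED21, are listed at 0 in the Lsd1-RIP library, so their place is set by the pseudocount.

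The head module had the lowest median ratio, 0.18 over 8 eligible members, and 3 of the 8 lay above the all-gene median. It forms the part of Mediator that meets the polymerase and its initiation factors. MED6 (3R:9766031-9768984), a conserved subunit at the junction of the head and middle, was the highest, with an FPKM of 1.84 (1.28 to 2.40) in the control and 4.68 (3.75 to 5.61) in the Lsd1 precipitation. Its ratio of 0.9998 (interval 0.63 to 1.37) was the highest of all subunits and fell just short of the 2-fold threshold. By plain fold it was 2.54-fold higher. MED6 overlaps CG8478 and Naa80, the second over 39.0% of its locus, with partner ratios of 0.46 and 0.30. Summed with Naa80, the depth-scaled log2 ratio of fragments was 0.71, against 1.03 for MED6 alone and -0.00465 for the median gene by that measure.

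The other head mRNAs lay near or under the all-gene median. MED17, the scaffold of the head, had an FPKM of 1.46 and 1.88, a ratio of 0.23. MED18 and MED20, which pair in a mobile part of the head, went in the same direction, from 5.93 to 7.75 and from 0.664 to 1.01, with ratios of 0.34 and 0.27. MED11 and MED22, another pair of partners, were the lowest head members listed in both libraries. MED11 had 1.78 and 1.56, a ratio of -0.12 (interval -0.83 to 0.59), and MED22 had 7.24 and 6.76, a ratio of -0.09. MED28 and MED30, head subunits of animals with no clear yeast counterpart, had ratios of 0.13 (FPKM 2.83 and 3.18) and 0.45 (1.41 and 2.29). Except for MED6 and MED8, the deposited intervals overlapped between the libraries for each head member.

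The middle module had a median of 0.42 over 8 eligible members, 4 of them above the all-gene median. It was below the all-gene median, at 0.28, without MED26, whose place in the module varies between sources, and at 0.24 with MED9 alone. MED26, whose human counterpart recruits elongation factors, had the highest FPKM of any subunit in the Lsd1-RIP library. It is the one subunit gene on chromosome 4 (4:778516-788978), and its FPKM was 5.01 (4.48 to 5.53) and 9.03 (8.24 to 9.82), a ratio of 0.74 (interval 0.57 to 0.91). MED1, the subunit that contacts nuclear receptors in mammals, had 2.14 (1.80 to 2.48) and 3.63 (3.16 to 4.11), a ratio of 0.56 with an interval from 0.34 to 0.78. Both had intervals apart between the libraries, as 36.1% of all eligible genes did with the Lsd1-RIP value higher. They had about 368 and 524 fragments for MED26 and 157 and 234 for MED1. MED10 (3L:16232084-16232777), a small core subunit, had 1.61 and 3.60 and a ratio of 0.81. With about 9.38 and 19.3 fragments its interval ran from 0.04 to 1.59, and its deposited intervals overlapped.

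Apart from MED9, the remaining middle members listed above 0 lay under the all-gene median. MED31, which binds MED7, had 4.22 and 5.33, a ratio of 0.28. MED19, a partner of Hox proteins in the fly, had 2.77 and 3.31, a ratio of 0.19. MED7, which forms a hinge with MED21, was level at 1.68 in both, a ratio of 0.000808 that is below the offset of the median gene. MED4, an architectural subunit below the minimum, had 0.905 and 0.792, with overlapping intervals.

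The tail module had 3 eligible members of 7, with a median of 0.50. MED15, a target of activators in yeast and animals, had an FPKM of 1.56 (1.18 to 1.94) and 2.88 (2.33 to 3.43), a ratio of 0.60. MED14, the backbone that joins the modules and is counted here with the tail, had 1.61 (1.34 to 1.88) and 2.70 (2.32 to 3.08), a ratio of 0.50. For both the deposited intervals were apart, as for 36.1% of all eligible genes with the Lsd1-RIP value higher. Their ratio intervals start at 0.302 for MED15 and 0.295 for MED14, under the all-gene median of 0.324. MED24 had 1.44 and 2.02, with overlapping intervals and a ratio of 0.31. Among those under the minimum, MED23, a target of signal-activated factors in mammals, went from 0.60 (0.429 to 0.771) to 1.32 (1.04 to 1.59), a plain fold of 2.20 with intervals apart. Its ratio interval also starts under the all-gene median, at 0.305. MED25 had 0.822 and 1.01, and MED16 had 0.783 and 0.939, both with overlapping intervals and plain folds of 1.23 and 1.20. The tail gene ix, which RefSeq lists with the synonym MED29, is outside the symbol rule and was added after its values were seen: it had an FPKM of 1.84 and 1.89, a ratio of 0.03 (interval -0.64 to 0.70).

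The largest shifts towards the control were those of 3 subunit genes that overlap another locus. Without strand in the library kit, fragments from the stretch that 2 overlapping genes share cannot be told apart, and their division was made by the authors' estimate. That stretch is the whole of MED9 but 25.1% of MED21 and 13.5% of MED8. MED9 (2R:18167255-18168380), a small middle subunit, had an FPKM of 4.69 (3.38 to 5.99) in the control and 1.45 (0.41 to 2.48) with the Lsd1 antibody. CG42518 (2R:18167227-18168380), which covers the whole of MED9 and ends at the same base, was listed at 0 and at 6.02. In fragments, MED9 had about 51.6 and 7.78 and CG42518 had 0 and 44.7, so the pair together held 51.6 and 52.4. MED9 taken alone would have a ratio of -1.22 (interval -1.91 to -0.52). By summed FPKM, 4.69 and 7.47, the ratio was 0.57 (interval 0.09 to 1.06), above the all-gene median. By summed fragments scaled by depth it was -0.19, below the -0.00465 of the median gene. FPKM of genes that are scaled by different lengths do not add exactly. Fragments derived from the bounds come out too low where the bounds also hold uncertainty of assignment. The side on which the pair falls is therefore not settled.

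MED21 (3L:25114924-25115946), the hinge partner of MED7, had an FPKM of 3.98 (2.75 to 5.20) and about 42.1 fragments in the control, against a listed 0 with the Lsd1 antibody. It shares 257 nt, 25.1% of its locus, with Set1, a histone H3 methyltransferase gene, whose FPKM was 2.40 and 4.98. MED8 (2R:20325844-20326806), a head subunit, had 2.12 (1.31 to 2.93) and about 27.5 fragments in the control, again against a listed 0. It shares 130 nt with tapas, a germline gene of the piRNA pathway at 3.96 and 8.01. Both neighbours had more fragments in the Lsd1-RIP library, Set1 with 214 and 380 and tapas with 218 and 362. On the pseudocount scale the ratios of MED21 and MED8 were -2.32 (interval -2.67 to -1.96) and -1.64 (interval -2.02 to -1.27), values set by the pseudocount that are no folds. Their intervals hold the error of the IgG-RIP value alone.

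Summed with the neighbour, the depth-scaled log2 ratio of fragments was 0.36 for MED21 with Set1 and 0.35 for MED8 with tapas, in both cases above the median gene. These sums are mostly the larger neighbour and say little of the subunit. MED27 (3R:5655139-5656336), a tail subunit, was listed at 0 in both libraries, and its neighbour CG2182, which shares 101 nt with it, had 7.83 and 10.8. For MED8 and MED21 the deposited status gave an estimate in each library, so no failure is marked for their listed 0. How these values of 0 arose was not tested. Absence of the mRNAs cannot be read from them. Among all genes, 61 eligible ones were listed at 0 in one library, 56 of them in loci that overlap another, while 50.1% of eligible genes overlap another locus. The part of overlap in the listed values of 0 was not tested. Among the 22 eligible subunits 14 overlap another locus, as do 15 of all 29. Overlap covered over 50% of the locus for 2, MED9 and MED31, the latter inside slx1 at 0.591 and 0.827.

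**Figure D3:**
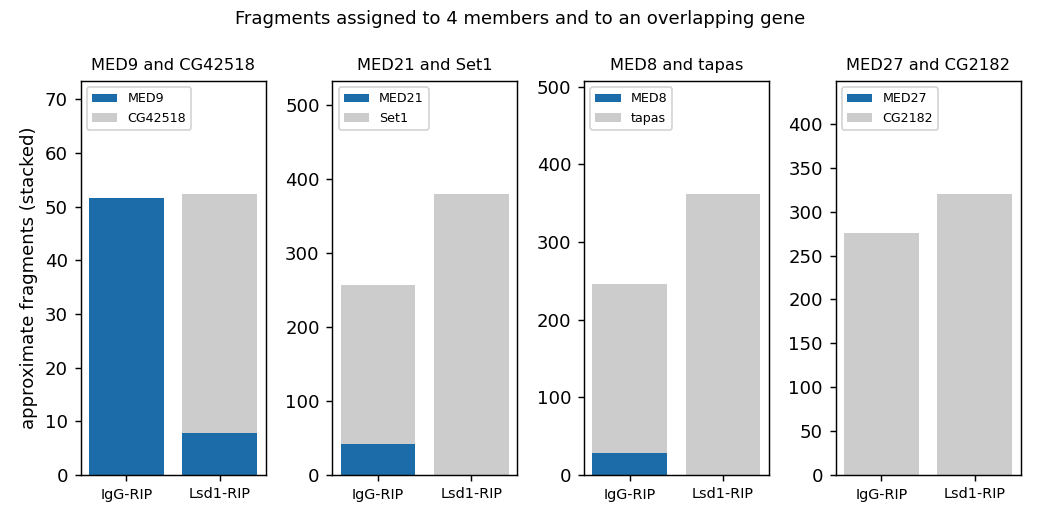
Approximate fragments (vertical axis, linear, from 0, scaled separately in each panel) assigned to MED9, MED21, MED8 and MED27 (blue) and to an overlapping gene (grey), stacked, in the IgG-RIP and Lsd1-RIP library. MED9 and CG42518 sum to 51.6 and 52.4, while MED9 alone goes from 51.6 to 7.78. MED27 has none in either library. Fragments derived from the deposited bounds can come out too low where genes overlap.

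Across all genes, ratios tended to be higher for longer transcripts, and the Mediator mRNAs showed the same direction. Fragments per FPKM stand in for transcript length, which they can understate for abundant genes with wide bounds, and 16 eligible subunits had the 20 fragments in each library that this measure needs. Over these 16, the Pearson correlation of its logarithm with the ratio was 0.54 (Spearman 0.55), and over the 5472 eligible genes with as many fragments it was 0.35 (Spearman 0.40). The points share their libraries, and both axes use the same FPKM, so the values are given as a description. The correlation of the ratio with log2 mean FPKM was -0.09 over the same 16. MED22, the shortest of the 16 at 6.55 fragments per FPKM, had a ratio of -0.09, and skd, the longest at 166, had 0.87.

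Set against the median of their length group, 9 of the 16 were above 0, and their median was 0.09. skd, kto and MED14 fall in the longest of 12 length groups, whose median ratio was 0.61. Against it, skd was at 0.26 and kto and MED14 at -0.09 and -0.10. CycC and MED6 belong to shorter groups, with medians of 0.23 and 0.26, and stood 0.58 and 0.74 above them. By module the medians on this scale were 0.26 for the kinase, 0.09 for the middle, 0.03 for the head and -0.09 for the tail module, over 3, 4, 6 and 3 members. The part of length in the ratios was not otherwise tested.

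**Figure D4:**
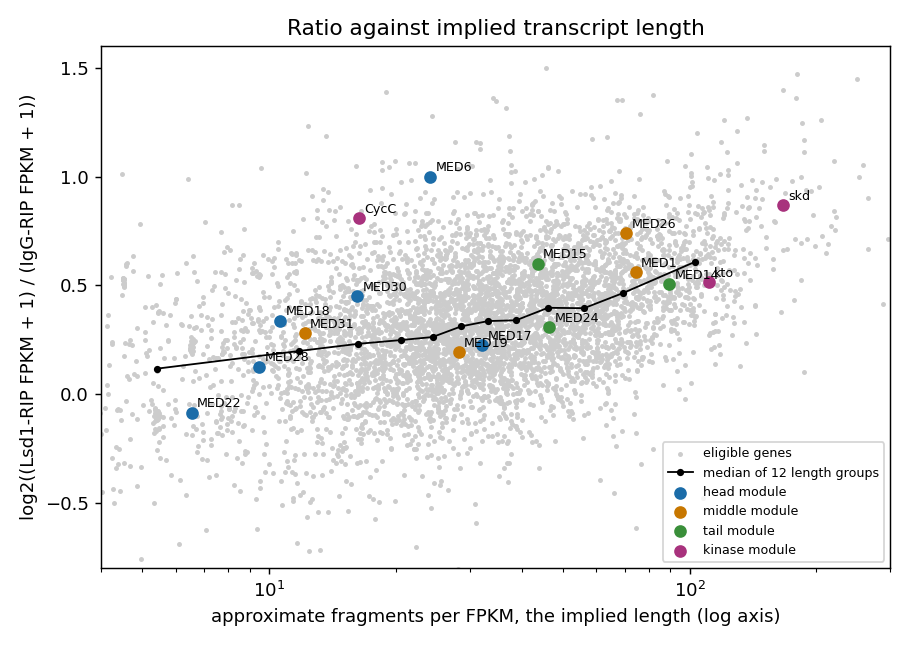
Ratio, log2 of FPKM + 1, against approximate fragments per FPKM (log axis), the implied transcript length, for eligible genes with 20 or more fragments in each library (grey), of which 143 lie outside the axes, and for 16 Mediator subunits coloured by module; the line joins the medians of 12 length groups. kto and MED14 lie under the line at the long end, skd above it, and MED6 and CycC lie well above it among shorter transcripts.

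The fragments, computed from the same FPKM and bounds, restate the ratios with no pseudocount and are no independent measure. Where genes overlap, bounds widened by uncertain assignment also change them. Scaled by depth outside ribosomal RNA, the 16 subunits had a median log2 ratio of 0.28, against -0.00465 for the median gene. The kinase module was at 0.55, the tail at 0.27, the middle at 0.29 and the head at -0.06. Over all members with fragments in both libraries, some with under 20, the highest were MED6 at 1.03, MED10 at 0.83, Cdk8 at 0.79, CycC at 0.76 and MED23 at 0.72. The lowest, apart from MED9 taken alone, were MED11, MED4 and MED22 at -0.65, -0.61 and -0.52.

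Other genes of the transcription machinery, from lists written with earlier results of these data known, gave medians below or close to that of all genes. The 12 subunits of RNA polymerase II, all eligible, had a median ratio of 0.24, with 5 above the all-gene median. RpII215, the largest subunit, had 3.39 and 9.50, a ratio of 1.26. Rpb10 was highest, listed at 0 and 10.5, and Rpb11 lowest, listed at 4.77 and 0; both overlap another locus. General transcription factors had a median of 0.32 over 28 eligible genes of 29, with 14 above, from Tbp, the TATA-binding protein gene, listed at 0 and 3.13, to TfIIFbeta, listed at 2.31 and 0.

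Integrator, another complex of many subunits, which cleaves nascent RNA, had 11 eligible genes of 14, a median of 0.24 and 3 above the all-gene median. Its ratios ran from -0.01 for IntS9 to 0.45 for IntS1, a narrower span than that of Mediator, and none of its genes was listed at 0. The other transcription kinases and their cyclins, 7 genes, had a median of 0.22 with 2 above. They ran from Mat1, the assembly factor of the Cdk7 kinase, at -0.02 (4.19 and 4.13) to CycT, the cyclin of Cdk9, at 0.83 (3.64 and 7.24, interval 0.65 to 1.01). The kinase partner of CycT, Cdk9, was at 0.22 (2.45 and 3.01). No test sets any of these lists apart from Mediator or from each other.

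**Figure D5:**
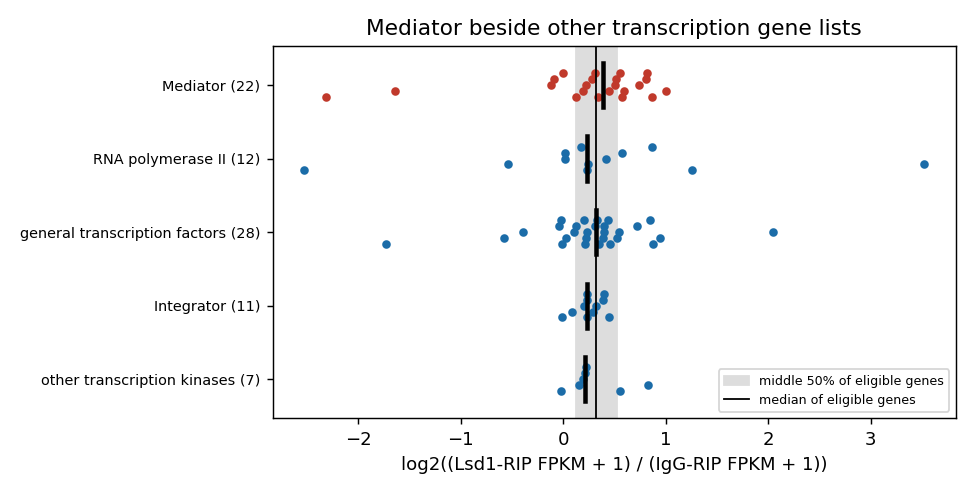
Ratio, log2 of FPKM + 1, of eligible genes of Mediator (red) and of 4 other transcription lists (blue), each point a gene and each bar the list median, with the number of genes in brackets; line and band are the median and middle 50% of 6025 eligible genes. The Mediator median of 0.39 lies right of the all-gene line at 0.32, and the medians of RNA polymerase II, Integrator and the other kinases lie between 0.22 and 0.24; points beyond 2 either way are listed at 0 in one library.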

How the data were processed

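RNA of 2 libraries was analysed, 1 per group. The authors deposited gene FPKM with lower and upper bounds and a status, per the file headers. Cufflinks, SAMtools 0.1.18.0, Bowtie2 2.0.6.0 and the genome build dm6 appear, with no stated role, among the submitters' processing notes. No version of Cufflinks and no annotation is given in those notes. Libraries were not strand-marked and skipped poly(A) selection, per the labels' protocols.

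Tables were joined on gene and locus, and locus starts were counted from 1. Each bound was treated as 2 standard deviations away, and approximate fragments were the squared ratio of FPKM to that deviation. Ratios used a pseudocount of 1. MED9 entered summed with CG42518. Implied length groups numbered 12. All 29 members are named. Ratio intervals were planned for the 3 highest and 3 lowest ratios, the kinase module and MED9 with CG42518. They are also printed for MED26, MED1, ix and CycT, and their lower ends for MED15, MED14 and MED23. Members and lists were chosen with earlier results of these data known. Calculations, in Python 3.11.15 with pandas 2.3.3 and numpy 2.4.6, were tested on simulated data. No test between groups was possible.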

Additional observations from a re-analysis of the deposited data

How the results depend on the processing

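With 1 library per group, no replicate could be left out, and no paired analysis was possible because each group has a single sample. The median of the eligible subunits ranged from 0.07 when centred on the all-gene median to 0.69 with no pseudocount, against an all-gene 0.44. It moved by less than the typical interval of a member under each alternative. The head median turned negative when centred (-0.15) and by fragments (-0.062), and the tail median against genes of like length (-0.089). The tail was at 0.18 when centred. Centring only moves the zero, and the head was as far below the all-gene median as reported. With no minimum FPKM the head lay above that median, at 0.225 against 0.195. Against genes of like length the head was also above, at 0.033. The kinase median was 1.07 with a pseudocount of 0.1 and 1.10 with none, against all-gene medians of 0.42 and 0.44. It was 0.49 when centred, 0.55 by fragments, 0.26 against genes of like length and 0.52 over kto, the 1 eligible member that overlaps no locus. The number of members above the all-gene median was 3 of 4 at a minimum FPKM of 5 and 5 of 8 without overlapping loci, fewer members being eligible in both. The kinase module had the highest median in 11 of the 12 settings that gave all 4, and the tail in the one without overlapping loci. The head was lowest in 11. These settings include the main result and centring, which cannot change the order. Taking MED9 alone, adding ix and leaving out members at 0 touch no kinase member, and the kinase median stayed at 0.81. The 11 are thus not 11 separate checks. MED9 taken alone put the median of all eligible subunits at 0.322 and the middle median at 0.24, both below the all-gene median, with 11 of 22 above. Without MED26 the middle median was 0.28, also below it. Leaving out members at 0 and adding ix were chosen after seeing the data. At these depths 5 of 22 eligible members had under 20 fragments in a library. A minimum of 5 left no tail or kinase member.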
